A study of Mus musculus with 3 samples.

Results

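A set of 9 genes encoding transcription factors of the glial lineage was followed in the cells of mouse glioblastomas: Sox2, Sox4, Sox11, Sox6, Sox9, Sox10, Olig1, Olig2 and Nkx2-2. They were taken by name, by a rule that uses no measured value but was set with earlier results of these data known, and make up 9 of the 50262 genes in the deposited table. All 9 passed the filter on low counts. The tumors arose in mice carrying, among other alleles, a conditional transgene for human EGFR (hsEGFR), in its wild-type form (EGFR WT), Cdkn2a-/- alleles and a conditional luciferase reporter, after intracranial injection of lentiviruses carrying Cre. The study's methods name a virus carrying TGFa with Cre and a virus carrying Cre alone, without stating which started these tumors. The study describes adult mice of both sexes on a mixed background. The promoter that drives Cre in these viruses is not given in the sources used here. Cells were sorted by CD45, a surface protein of leukocytes, and profiled by inDrop single-cell RNA-seq, which counts captured mRNA molecules by their unique molecular identifiers (UMIs). Libraries were labeled as early, medium or late (large) growth, without a name for the tumor or animal. Those of a stage were taken as 1 tumor sample. The study describes its early samples as pooled from more than 1 mouse or tumor and its late samples as single tumors. It does not describe a medium stage, so whether the medium sample was pooled was not established. All groups below are cells of these same tumors, so every group carries the same inherited alleles. Normal brains of the study were not analysed here.

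SOX proteins bind DNA through an HMG box. Sox2 is a factor of neural stem cells, Sox4 and Sox11 (group C) are expressed in immature neural cells, and Sox6 (group D) holds oligodendrocyte precursors back from maturation. Sox9 and Sox10 (group E) mark astrocytes and the oligodendrocyte lineage respectively. Olig1 and Olig2 are basic helix-loop-helix factors that specify oligodendrocyte precursors, and Nkx2-2 is a homeodomain factor acting as these cells begin to differentiate. In glioma, precursor-like tumor cells are known for high OLIG2 and PDGFRA.

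On the GRCm38 annotation, Olig2 (chr16:91225457-91228677, plus strand) and Olig1 (chr16:91269772-91271933, plus strand) lie 41095 bases apart. The single-exon genes Sox2 (chr3:34650405-34652461, plus strand), Sox4 (chr13:28948919-28953713, minus strand) and Sox11 (chr12:27334264-27342574, minus strand) lie on 3 chromosomes. Sox6 (chr7:115470872-116038796, minus strand) is the longest gene of the set. Sox9 spans chr11:112782224-112787760 on the plus strand, Sox10 spans chr15:79154908-79165240 on the minus strand, and Nkx2-2 spans chr2:147177546-147194243 on the minus strand. Some loci share exon bases with a noncoding gene on the opposite strand. Gm15966 shares 157 bases with Olig1 and had 4155 UMIs in Pdgfra-type cells and 231 in Lgals1-type cells. Gm26735 shares 2616 bases with Sox4, and Nkx2-2os, with few UMIs, shares 278 with Nkx2-2. Whether counting used the strand is not given in the sources used here, so reads of these genes and their partners cannot be told apart.

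RefSeq promoter sequence (GRCm38.p6) was found for 6 of the 9 genes, the others being Sox9, Sox10 and Olig1. The 250 bases upstream of a RefSeq start are shown for 4 genes that differ in the comparisons below: Olig2, Nkx2-2 and Sox11, which differed between the tumor cell kinds, and Sox4, which did not pass the test between them. Capitals mark a SOX motif (ACAAAG or ACAATG, either strand), present in 25.2% of 32851 promoters of that length, or the E-box CAGCTG, present in 13.0%. The 2 motifs do not overlap in these windows. RefSeq starts differ from the ends of the loci above, so the Nkx2-2 window lies inside its locus and the Olig2 and Sox4 windows reach into theirs.
Olig2 (chr16:91225300-91225549, plus strand): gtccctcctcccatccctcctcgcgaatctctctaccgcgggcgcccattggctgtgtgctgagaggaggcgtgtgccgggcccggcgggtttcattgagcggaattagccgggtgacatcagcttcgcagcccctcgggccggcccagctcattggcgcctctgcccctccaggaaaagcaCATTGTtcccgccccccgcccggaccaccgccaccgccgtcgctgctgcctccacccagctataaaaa
Nkx2-2 (chr2:147186403-147186652, minus strand): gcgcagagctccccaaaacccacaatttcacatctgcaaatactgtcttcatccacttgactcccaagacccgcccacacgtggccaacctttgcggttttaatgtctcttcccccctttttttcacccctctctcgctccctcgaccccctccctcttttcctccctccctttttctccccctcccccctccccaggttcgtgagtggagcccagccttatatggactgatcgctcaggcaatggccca
Sox11 (chr12:27342719-27342968, minus strand): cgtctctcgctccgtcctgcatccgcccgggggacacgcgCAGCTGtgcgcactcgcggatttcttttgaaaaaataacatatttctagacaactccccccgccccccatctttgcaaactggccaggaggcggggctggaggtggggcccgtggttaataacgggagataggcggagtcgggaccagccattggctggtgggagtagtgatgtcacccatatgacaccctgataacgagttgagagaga
Sox4 (chr13:28953700-28953949, minus strand): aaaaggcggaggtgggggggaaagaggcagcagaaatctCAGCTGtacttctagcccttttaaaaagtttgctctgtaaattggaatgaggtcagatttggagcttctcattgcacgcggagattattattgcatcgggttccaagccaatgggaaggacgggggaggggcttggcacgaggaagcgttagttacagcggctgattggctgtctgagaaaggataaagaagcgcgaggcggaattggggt
The Olig2 window held 1 SOX match, starting at base -68 from the start. The Sox11 and Sox4 windows each held 1 E-box, at -210 and -211, and the Nkx2-2 window held no match to these letters.

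Cells of the CD45- sort were gated on marker genes that include none of the 9. Cells with at least 2 hsEGFR UMIs were called Pdgfra-type where Pdgfra UMIs exceeded Lgals1 UMIs and Lgals1-type in the reverse case. Pdgfra encodes a receptor of oligodendrocyte precursors and Lgals1 a galectin of mesenchymal cells. Of 1159 such cells, 426 were Pdgfra-type, 419 Lgals1-type and 314 ties, 303 of which had 0 UMIs of both genes. A difference of 1 UMI decided 62 Pdgfra-type and 60 Lgals1-type cells. Cells with 0 hsEGFR UMIs were called progenitor-like (364 cells), oligodendrocyte-like (2757) or astrocyte-like (149) from at least 3 markers of that class and more than of any other. The lead was 1 marker in 12, 15 and 8 of these. The early tumor held 0 Pdgfra-type cells and 1 Lgals1-type cell, so the tumor kinds are given for the medium and late tumors only.

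The CD45- sort held 2725 early, 1603 medium and 2268 late cells after filtering, with 8100096, 6559876 and 10589403 UMIs. Median UMIs per cell were 6221.5 in Pdgfra-type, 8015 in Lgals1-type, 2527 in progenitor-like, 2486 in oligodendrocyte-like and 1665 in astrocyte-like cells. Levels are UMIs relative to all UMIs of the class, scaled as CPM, and shares of cells were also computed at 1500 UMIs per cell. Libraries of the same tumor and sort shared from 0 to 25.5% of the smaller library's droplet barcodes (median 4.66% over 33 pairs), against at most 3.30% in the 220 other pairs. Of the 4115 cells in the 5 classes, 594 (14.4%) carried such a barcode, among them 107 of 292 late Pdgfra-type and 131 of 350 late Lgals1-type cells. Cdkn2a, deleted in these mice, had at most 9 UMIs in any class and tumor of the sort. Keeping each shared barcode once, an alternative added after the data were seen, left every call on the 9 genes on the same side of the threshold, including 3.94 in place of 3.97 for the log2 difference of Olig1 between tumor cell kinds.

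To find out how the factors mark the kinds of tumor cell, Pdgfra-type cells were compared with Lgals1-type cells. Olig1, Olig2, Sox6, Sox11 and Nkx2-2 were higher in Pdgfra-type cells, from 4.54-fold for Nkx2-2 to 15.7-fold for Olig1. Sox10 and Sox4 were close to equal, and Sox2 and Sox9 did not pass the test. Thus 5 of the 9 factors were higher and 0 lower, beside 6.74% of all 12258 genes tested that were higher and 5.92% that were lower. The counts of each class were summed per tumor and tested with edgeR's quasi-likelihood test, two-sided, with tumor as a block and Benjamini-Hochberg adjustment over all genes.

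Of the basic helix-loop-helix factors, Olig1 reached 1553 CPM in medium-stage and 1703 CPM in late-stage Pdgfra-type cells, against 156 and 48.0 CPM in Lgals1-type cells. The 95% Poisson intervals, which like all intervals here cover counting error only, ran from 1478 to 1632, 1644 to 1763, 126 to 192 and 40.8 to 56.2 CPM. The 2 kinds were far apart in both tumors, and Lgals1-type cells held more Olig1 in the medium tumor, where 50 of its 92 UMIs lay in the 14 of 68 cells that held both Pdgfra and Lgals1. The log2 difference was 3.97 ± 0.42 (SE; edgeR adjusted p = 2.63e-07). Olig2 was at 603 and 567 CPM in Pdgfra-type and 78.2 and 32.2 CPM in Lgals1-type cells, again without overlap, and differed by 3.38 ± 0.37 on the log2 scale (edgeR adjusted p = 3.43e-07). The size of both differences moved with single samples. Olig1 and Olig2 stood at 4.98 and 3.97 without the medium tumor and at 3.16 and 2.79 without the late tumor. Without run 1 they stood at 5.20 and 4.91. In a fit of the 2 kinds alone, Olig1 differed by 4.10 and missed the threshold (adjusted p = 0.134). Counting Olig1 together with its overlapping neighbour gave 2860 and 3230 CPM in Pdgfra-type and 301 and 93.3 CPM in Lgals1-type cells.

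Few Lgals1-type cells held any Olig transcript. At 1500 UMIs per cell, 77.8% of medium and 80.7% of late Pdgfra-type cells were expected to have an Olig1 UMI, against 9.41% and 3.41% of Lgals1-type cells. Cells shallower than this were left out, 6 and 16 of the Pdgfra-type and 1 and 4 of the Lgals1-type. Without thinning the shares were 92.5%, 88.7%, 16.2% and 5.43%. In myeloid-like cells of the CD45- sort, which should lack the gene, 1 of 106 medium cells (0.943%) and 0 of 29 late cells had a UMI, at a median of 2150 and 1986 UMIs per cell. In myeloid-like cells of the CD45+ sort, which are other libraries, the shares were 0.308% and 0.315% at medians of 1965 and 2086 UMIs. The Lgals1-type shares at 1500 UMIs lay above the CD45+ shares in both tumors. Within the late CD45- sort, the 29 myeloid-like cells are too few to compare, since 0 of 29 allows a share of up to 11.9% (Clopper-Pearson) and a level of up to 49.6 CPM. In larger late classes of that sort Olig1 was at 3.88 CPM (0.799 to 11.3) in neuron-like cells, from 3 UMIs, and at 0 in choroid-plexus-like cells, which allows up to 9.73 CPM, both under the 48.0 CPM (40.8 to 56.2) of Lgals1-type cells. Mural and fibroblast-like cells were at 15.2 CPM (4.14 to 38.9), also under that interval. Endothelial-like cells were at 19.0 CPM (3.92 to 55.5), whose interval overlaps that of Lgals1-type cells. Astrocyte-like cells were above Lgals1-type cells in the late tumor, at 262 CPM from 9 UMIs. In the medium tumor they were at 155 CPM from 20 UMIs, against 156 CPM in Lgals1-type cells.

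The homeodomain factor Nkx2-2 was at 177 and 243 CPM in Pdgfra-type and 39.1 and 42.5 CPM in Lgals1-type cells, a log2 difference of 2.18 ± 0.42 (edgeR adjusted p = 0.000532). Sox6, the group D factor, was at 412 and 427 CPM against 93.5 and 47.7 CPM, a log2 difference of 2.49 ± 0.37 (edgeR adjusted p = 2.27e-05). Both genes were higher in Pdgfra-type cells of both tumors, with no overlap. Sox11 was at 178 and 414 CPM against 30.6 and 62.0 CPM, a log2 difference of 2.45 ± 0.39 (edgeR adjusted p = 4.95e-05). It was higher in the late than in the medium tumor in both kinds of cell. Without the late tumor each kind is a single sum, assumed to vary like the other classes, and the edgeR adjusted p was then 0.227 for Nkx2-2, 0.0877 for Sox6 and 0.0796 for Sox11, at log2 differences of 2.02, 1.98 and 2.38. Without tumor as a block Sox11 had an adjusted p of 0.0592.

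**Figure D1:**
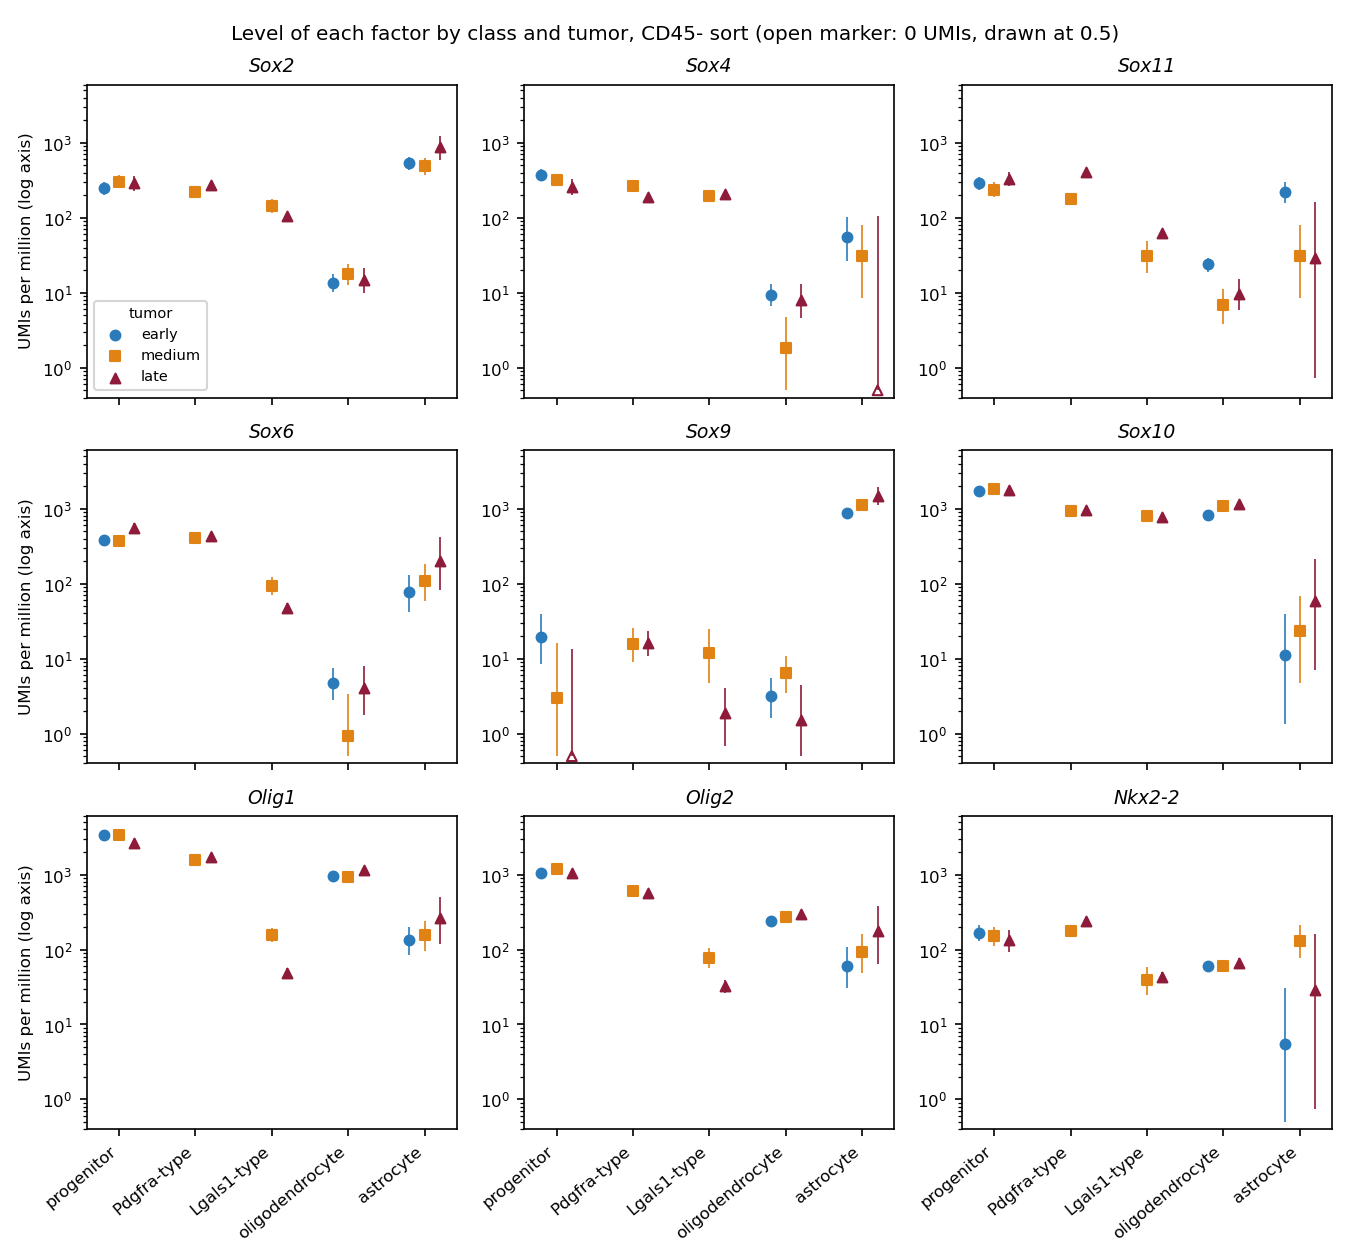
Levels of the 9 factors in CPM (log axis) by class, with a marker per tumor (circle early, square medium, triangle late) and 95% Poisson bars. Olig1 and Olig2 are high in progenitor-like and Pdgfra-type cells and low in Lgals1-type cells, at 48.0 CPM of Olig1 in the late tumor, while Sox10 is high in all but the astrocyte-like cells.

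Sox10, the group E factor of the oligodendrocyte lineage, was near equal in both kinds of tumor cell. It was at 937 and 958 CPM in Pdgfra-type and 791 and 767 CPM in Lgals1-type cells. The levels did not overlap, but the log2 difference was 0.11 ± 0.30 (edgeR adjusted p = 0.909). A UMI of Sox10 was found in 90.3% and 87.3% of Pdgfra-type and in 91.2% and 91.7% of Lgals1-type cells. At 1500 UMIs per cell the late shares were 66.5% and 63.8%, against 3.45% of late CD45- myeloid-like cells with a UMI (1 of 29).

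Sox4 was at 267 and 192 CPM in Pdgfra-type and 196 and 207 CPM in Lgals1-type cells, so the ranges of the 2 kinds overlapped. Its log2 difference was -0.0025 ± 0.34 (edgeR adjusted p = 1). Sox2, the stem cell factor, was at 220 and 277 CPM against 145 and 104 CPM. It was higher in Pdgfra-type cells of both tumors, but the log2 difference of 0.85 ± 0.29 missed the threshold (edgeR adjusted p = 0.0525) and passed it in 8 of 23 alternative settings. Sox9, the astrocyte factor, was low in both kinds, at 15.8 and 16.2 CPM against 11.9 and 1.86 CPM, or 16 and 30 UMIs against 7 and 6. Its log2 difference was 1.78 ± 0.65 (edgeR adjusted p = 0.0795). Sox9 did not pass in 19 of 23 alternative settings, over which the log2 difference ran from 0.255 to 2.90.

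Single libraries were compared within the late tumor, where 4 libraries held at least 20 cells of both kinds. Every factor except Sox4 was higher in Pdgfra-type cells in 4 of 4 libraries, and Sox4 in 1 of 4. In 1 of these libraries Sox9 had 2 UMIs against 0. Pairs of these libraries shared 3.06 to 25.5% of the smaller library's barcodes, so they are not established as separate sets of cells. Olig1 ranged from 1561 to 1947 CPM over the libraries of Pdgfra-type cells and from 14.7 to 73.9 CPM over those of Lgals1-type cells. Sox10 ranged from 889 to 1027 CPM and from 721 to 826 CPM.

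**Figure D2:**
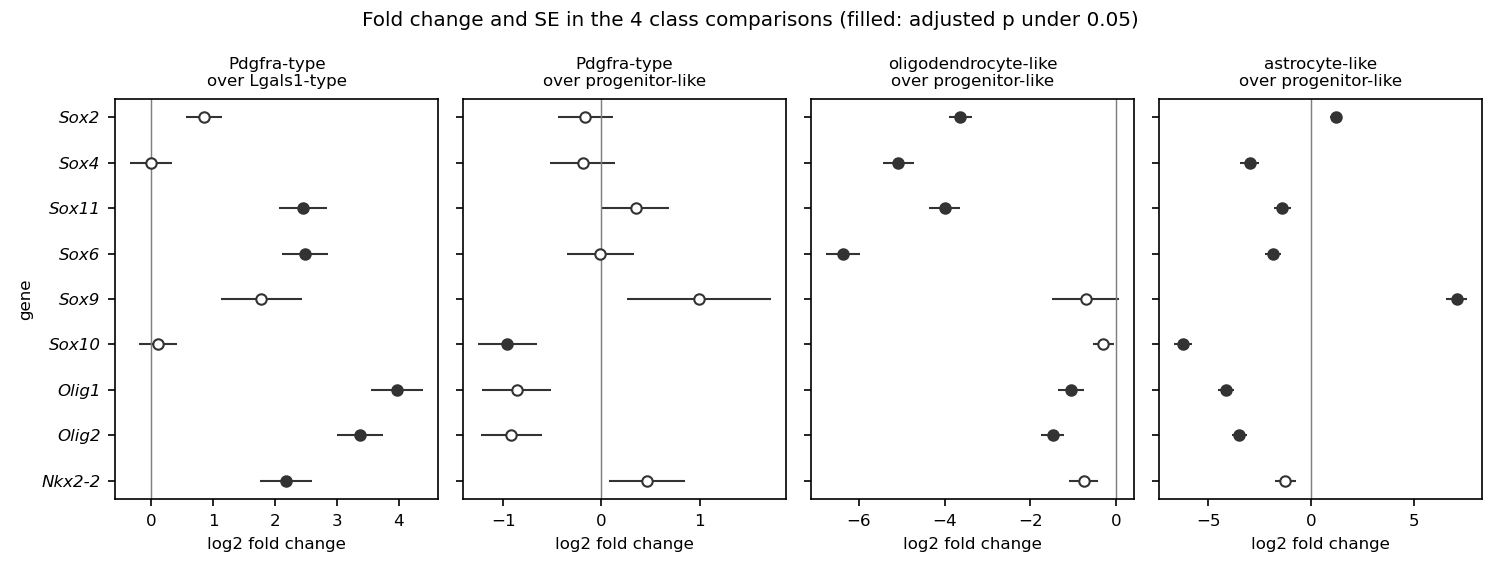
Log2 fold change of each factor in the 4 class comparisons, with SE bars, filled where the edgeR adjusted p was under 0.05. Sox10 sits at 0.11 between the tumor cell kinds where Olig1 sits at 3.97, and Sox9 stands at 7.06 in astrocyte-like over progenitor-like cells.

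Markers of other cell types moved with the split. The 10 progenitor markers, with Pdgfra among them, were at a median of 8 per Pdgfra-type cell and 2 per Lgals1-type cell. Pdgfra took part in the split. The other 9 summed to 4962 and 4275 CPM in Pdgfra-type and 923 and 919 CPM in Lgals1-type cells. The 10 oligodendrocyte markers summed to 844 and 840 CPM in Pdgfra-type and 422 and 285 CPM in Lgals1-type cells. The 10 mural and fibroblast markers summed to 85.1 and 95.9 CPM in Pdgfra-type cells (4 and 6 of 10 detected) and to 835 and 619 CPM in Lgals1-type cells (9 of 10 in each). Among the defining ones, Pdgfrb and Vtn were at 0 in Pdgfra-type cells of both tumors and detected in Lgals1-type cells of both, while Higd1b and Kcnj8 were at 0 in Pdgfra-type cells of both tumors and in medium and late Lgals1-type cells respectively. The 10 astrocyte markers summed to 501 and 336 CPM and to 420 and 1042 CPM. The 10 endothelial markers summed to 58.4 and 83.5 CPM in Pdgfra-type cells (6 and 8 of 10 detected) and to 255 and 150 CPM in Lgals1-type cells (8 and 10 of 10), with Esam at 0 in Pdgfra-type cells of both tumors and Cdh5 at 0 there and in medium Lgals1-type cells. The 10 ependymal markers summed to 40.6 and 71.1 CPM (6 and 4 of 10 detected) and to 238 and 317 CPM (8 and 6 of 10), with Enkur at 0 in both kinds and tumors, and Pifo and Meig1 at 0 in Pdgfra-type cells of both tumors and in late and medium Lgals1-type cells respectively. Choroid plexus markers summed to 485 and 382 CPM against 379 and 210 CPM, neuron markers to 327 and 236 CPM against 209 and 223 CPM, and myeloid and lymphocyte markers to at most 65.7 CPM in either kind. The hsEGFR transgene was at 2740 and 2850 CPM in Pdgfra-type and 1381 and 1467 CPM in Lgals1-type cells, and iCre at 238 and 207 CPM against 272 and 210 CPM. The part of these in the results was not tested.

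The pairing of factors within single cells showed the same split. Sox10 without an Olig1 UMI was found in 75.0% of medium and 86.6% of late Lgals1-type cells, against 7.46% and 8.22% of Pdgfra-type cells. Neither Olig1 nor Olig2 was found in 80.9% and 91.1% of Lgals1-type cells, against 5.97% and 9.59% of Pdgfra-type cells. Within Lgals1-type cells, Sox10 made up 83.5% of the summed Sox10 and Olig1 UMIs in the medium and 94.1% in the late tumor, while in Pdgfra-type cells it made up 37.6% and 36.0%. Pdgfra-type cells held a median of 6 of the 9 factors per cell in both tumors and Lgals1-type cells 2.5 and 3, although the latter were the deeper cells.

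**Figure D3:**
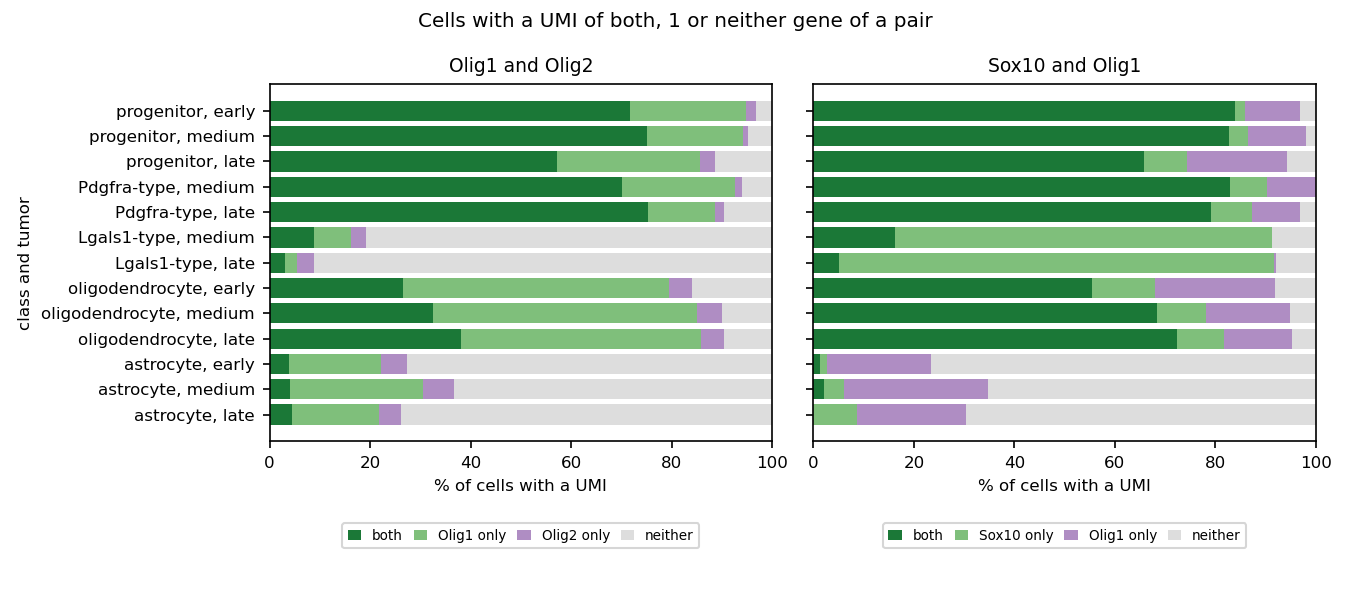
Share of cells (%) of each class and tumor with a UMI of both genes, of 1 gene or of neither, for Olig1 with Olig2 (left) and Sox10 with Olig1 (right). Lgals1-type cells are mostly without either Olig gene (80.9% and 91.1%) and mostly hold Sox10 alone in the right panel.

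To see whether the factors changed in steps or by degrees, cells with at least 2 hsEGFR UMIs were binned by the share of Pdgfra in their Pdgfra and Lgals1 UMIs. This share chose the 2 kinds, so the bins are a description without a test. In the late tumor Olig1 was at 35.9 CPM in 257 cells with Lgals1 alone, 70.5 CPM in 93 cells with a share under 0.5, 967 CPM in 32 cells with a share over 0.5 and 1862 CPM in 260 cells with Pdgfra alone. In the medium tumor it was at 102, 285, 872 and 1693 CPM in 54, 14, 16 and 118 cells. The same 14 cells held 29 of the 46 Olig2 UMIs of medium Lgals1-type cells, at 166 CPM against 41.2 CPM in the 54 cells with Lgals1 alone. In the late tumor Sox11 was at 47.8, 88.1, 288 and 441 CPM over the same bins and Sox10 at 837, 637, 791 and 993 CPM. Medium Sox10 was at 773, 834, 854 and 954 CPM. In the medium tumor Sox11 was at 31.5, 28.5, 262 and 161 CPM, so its level was higher in both bins over 0.5 but did not climb from bin to bin. In cells with a UMI of neither gene, Olig1 was at 717 CPM in 93 medium and 708 CPM in 208 late cells, between the levels of the 2 kinds. Sox10 was at 924 and 1354 CPM in these cells, the late value above both kinds. Late Sox2, Sox4 and Nkx2-2 were also above both kinds there, at 391, 462 and 420 CPM. Late Olig2, Sox6, Sox9 and Sox11 lay between the kinds. Medium Sox2, Sox4 and Nkx2-2 were at 148, 303 and 189 CPM. Depth also varied over the bins, and the 2 bins in which cells held both genes were the deeper ones. Late medians were 6981, 11242, 9514 and 5298.5 UMIs in the order above, and medium ones 7081.5, 10637, 9276 and 6870. Cells with a UMI of neither gene were shallower, at 5335 (medium) and 3455.5 (late). The part of depth, or of doublets left in the data, in the intermediate levels was not tested.

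**Figure D4:**
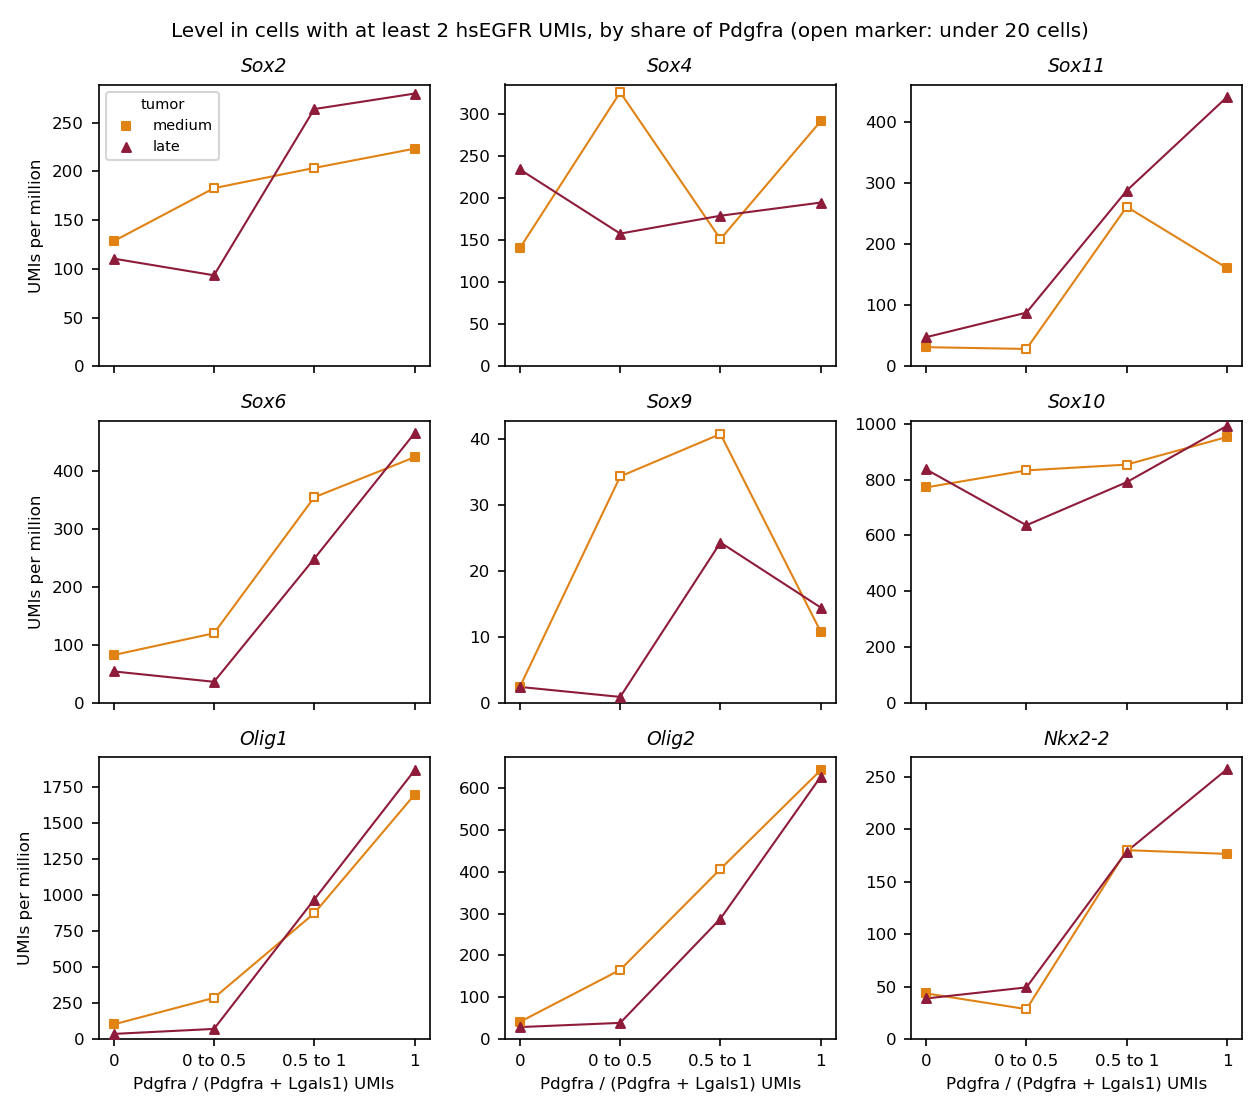
Level in CPM of each factor in tumor cells binned by the share of Pdgfra in their Pdgfra and Lgals1 UMIs (0, under 0.5, over 0.5, 1), with squares for the medium and triangles for the late tumor and open markers under 20 cells. Late Olig1 goes from 35.9 CPM at a share of 0 to 1862 CPM at 1, while Sox10 stays between 637 and 993 CPM.

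Cells with UMIs of at least 2 of 10 cell cycle genes made up 19.4% and 37.7% of Pdgfra-type cells and 16.2% and 35.4% of Lgals1-type cells in the medium and late tumors. In Pdgfra-type cells Olig1 was at 972 and 1438 CPM in these cycling cells against 1842 and 2010 CPM in cells with no cell cycle gene. Nkx2-2 was at 169 and 134 CPM against 219 and 395 CPM, and Sox4 at 99.4 and 143 CPM against 326 and 258 CPM. Sox10 was also lower in cycling cells, at 709 and 868 CPM against 929 and 1114 CPM, as were Olig2 and Sox6. Sox11 went the other way, at 285 and 471 CPM in the cycling against 130 and 358 CPM in the other cells. So did Sox9, at 30.2 and 23.6 CPM against 9.27 and 8.52 CPM, from at most 20 UMIs each. Sox2 was mixed, at 281 and 246 CPM against 223 and 299 CPM. In late Lgals1-type cells Sox11 was at 74.7 against 40.4 CPM and Olig1 at 34.9 against 41.3 CPM. Cycling cells were deeper, with medians of 8783.5 and 7088 UMIs against 6887 and 4609 in Pdgfra-type cells, and these values were not tested.

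Other regulators from fixed lists were counted in the same comparison. Of 7 tested of 13 other Sox genes, 2 were higher in Pdgfra-type cells and 0 lower. These were Sox3, the close relative of Sox2, with a log2 difference of 3.44 ± 0.42 (edgeR adjusted p = 1.35e-06), and Sox8, the third group E gene, with 2.22. Of 17 tested of 18 other regulators of the oligodendrocyte lineage, 7 were higher and 2 lower. Among them Hes5, a Notch effector, had 7 and 13 UMIs in Pdgfra-type cells and 0 in Lgals1-type cells of both tumors, and Myrf, which drives myelin genes, was at 65.3 and 115 CPM against 22.1 and 16.1 CPM. The lower genes were Id4, an inhibitor of basic helix-loop-helix factors, at -2.67, and Hes1, a Notch effector named after its value was seen, at -1.74. The median log2 difference was 0.88 over this list and 2.18 over the 9 factors, beside 0.02 over all genes, a median that moved to 0.20 without TMM scaling factors.

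Of 13 tested of 15 regulators of astrocytes and radial glia, 3 were higher in Pdgfra-type cells (Dbx2, Nfix and Lhx2) and 0 lower. Nfix was at 239 and 239 CPM against 30.6 and 12.4 CPM. Of the 6 textbook targets of SOX10, 0 were higher and 1 was lower: Erbb3, a neuregulin receptor, was at 136 and 90.5 CPM in Pdgfra-type and 274 and 291 CPM in Lgals1-type cells, a log2 difference of -1.52. None of the 10 cell cycle genes passed in either direction.

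Pdgfra-type cells were next compared with progenitor-like cells, which carry precursor markers without a detected transgene. Of the 9 factors only Sox10 passed the test, and it was lower in the tumor cells. Thus 0 of 9 factors were higher and 1 lower, beside 5.05% of all genes higher and 3.48% lower. Sox10 was at 1736, 1851 and 1774 CPM in early, medium and late progenitor-like cells, above both Pdgfra-type values. The log2 difference was -0.96 ± 0.30 (edgeR adjusted p = 0.0437), and it held in 9 of 23 alternative settings. With the late progenitor-like cells left out, an alternative added after the data were seen, the adjusted p was 0.122, and without the block it was 0.101. Over all genes the median log2 difference was -0.10 in this comparison. Markers moved with it too. The 9 progenitor markers other than Pdgfra, which took part in the choice of progenitor-like cells, summed to 4962 and 4275 CPM in Pdgfra-type and 8911, 8427 and 8470 CPM in progenitor-like cells, and all 9 were detected in each sum. The 10 astrocyte markers summed to 501 and 336 CPM (8 and 10 of 10 detected) against 1406, 1363 and 909 CPM (10, 8 and 9 of 10), and the 10 oligodendrocyte markers to 844 and 840 CPM against 369, 368 and 802 CPM. The part of these in the comparison was not tested.

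Olig1 was at 3318, 3347 and 2639 CPM in progenitor-like cells, above both Pdgfra-type values, but its log2 difference of -0.86 ± 0.35 did not pass (edgeR adjusted p = 0.135). Olig2 was at 1044, 1189 and 1042 CPM, with a log2 difference of -0.92 ± 0.31 (edgeR adjusted p = 0.0692). Olig2 did not pass in 19 of 23 alternative settings and Olig1 in 22 of 23. The other 6 factors differed by at most 1.00 on the log2 scale, that of Sox9, and none of these passed. Sox2 was at 246, 303 and 287 CPM, Sox4 at 377, 321 and 258 CPM, Sox11 at 288, 238 and 328 CPM, Sox6 at 384, 368 and 545 CPM and Nkx2-2 at 167, 150 and 133 CPM. Nkx2-2 was lower in each progenitor-like sum than in either Pdgfra-type sum. At 1500 UMIs per cell, Olig1 was expected in 96.1%, 93.4% and 85.9% of progenitor-like cells, with 36, 17 and 37 shallower cells left out. No UMI of iCre was found in early progenitor-like cells, and 15 and 5 UMIs were found in the medium and late ones. The part of infected cells without a detected transgene was not tested.

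**Figure D5:**
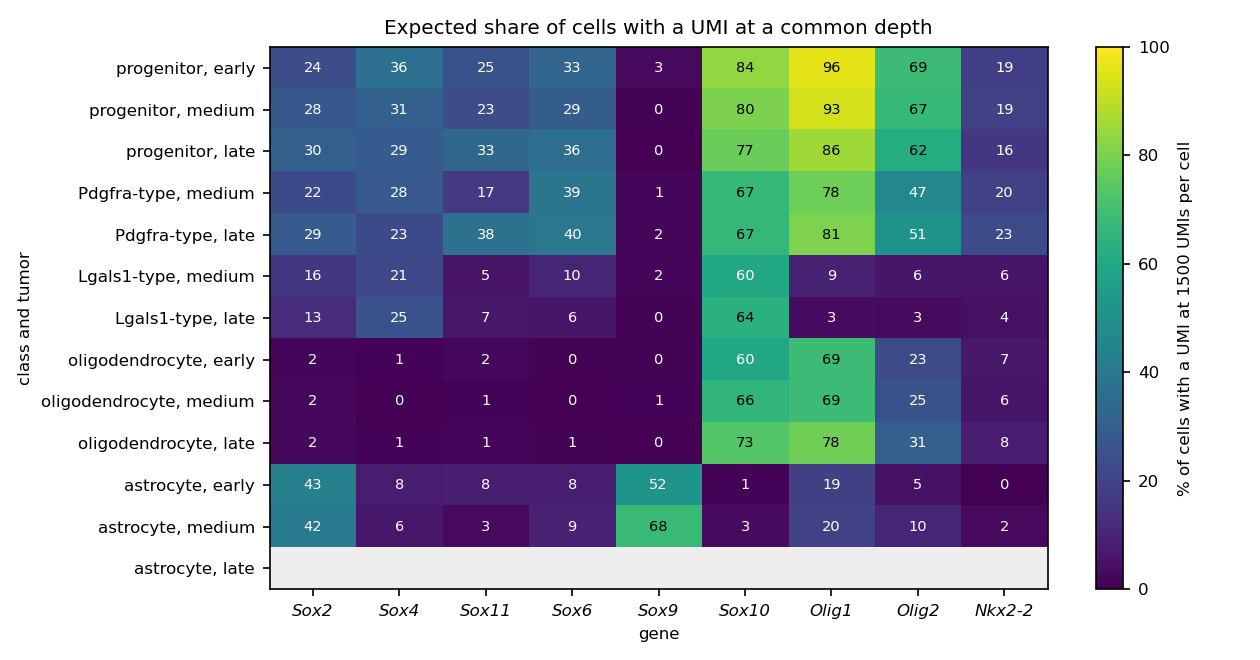
Expected share of cells (%, color and number) with a UMI of each factor when every cell is thinned to 1500 UMIs, by class and tumor. Late astrocyte-like cells are blank because only 7 reach that depth, and Olig1 falls from 80.7% in late Pdgfra-type to 3.41% in late Lgals1-type cells.

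Among the lists, other Sox genes had 2 lower and 0 higher of 7, Sox1 and Sox21. The lineage regulators had 1 lower of 17, the Notch effector Hes5 at -3.31 on the log2 scale, and 0 higher. Of the cell cycle genes, 8 of 10 were higher, with a median log2 difference of 3.02. The astrocyte and radial glia list had 1 higher of 13 (Id1) and the SOX10 targets 0 of 6 in either direction.

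Along the normal-like lineage, oligodendrocyte-like cells were compared with progenitor-like cells. Sox6, Sox4, Sox11 and Sox2 were lower by 12.4-fold (Sox2) to 82.7-fold (Sox6), Olig2 and Olig1 were lower by 2.79-fold and 2.08-fold, and Sox10, Nkx2-2 and Sox9 did not pass. Thus 6 of 9 factors were lower and 0 higher, beside 20.4% of all genes lower and 17% higher. In early, medium and late oligodendrocyte-like cells Sox6 was at 4.72, 0.920 and 4.06 CPM, from only 18, 2 and 8 UMIs. It differed by -6.37 ± 0.39 on the log2 scale (edgeR adjusted p = 3.51e-13). Its progenitor-like level was 81.4, 400 and 134 times as high in the early, medium and late tumors. Sox4 was at 9.44, 1.84 and 8.11 CPM, from 36, 4 and 16 UMIs, and differed by -5.08. Sox11 was at 23.9, 6.90 and 9.63 CPM and differed by -3.99, and Sox2 was at 13.6, 17.9 and 14.7 CPM and differed by -3.63. None of these levels came near those of the progenitor-like cells.

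Olig1 was at 965, 915 and 1150 CPM in oligodendrocyte-like cells and differed by -1.06 ± 0.30 (edgeR adjusted p = 0.00618). Olig2 was at 239, 268 and 296 CPM and differed by -1.48 ± 0.27 (edgeR adjusted p = 5.82e-05). For both genes the ranges of the 2 classes were apart. The Olig1 call was lost in 3 of 23 settings: without the early tumor (edgeR adjusted p = 0.0575), without the medium tumor (edgeR adjusted p = 0.187) and with classes from Leiden clusters (edgeR adjusted p = 0.0841). Nkx2-2 was at 60.3, 59.3 and 65.4 CPM, and its log2 difference of -0.75 ± 0.34 did not pass (edgeR adjusted p = 0.0858). It did not pass in 19 of 23 alternative settings, but without TMM scaling factors it was -1.32 (edgeR adjusted p = 0.0026). Without these factors Olig1 and Olig2 differed by -1.62 and -2.04. Oligodendrocyte-like cells held more Olig1 and Olig2 than Lgals1-type cells in both the medium and the late tumor.

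Sox10 was at 815, 1081 and 1140 CPM in oligodendrocyte-like cells, below every progenitor-like value. After scaling by TMM factors its log2 difference was -0.30 ± 0.25 (edgeR adjusted p = 0.374), and without these factors it was -0.86 (edgeR adjusted p = 0.00469). Scaling mattered in this comparison, since the median over all genes moved from -0.05 to -0.60 without the factors, and the share of higher genes among all called moved from 45.4% to 20.1%. Leaving out the factors shifts all genes by a similar amount, so Sox10 kept its place relative to these medians by construction. Of the 6 textbook SOX10 targets, 5 were higher and 1 was lower in oligodendrocyte-like cells. The lower gene was Ednrb, an endothelin receptor of precursors, which differed by -7.51 on the log2 scale. In the lineage list 6 of 17 were higher, among them Nkx6-2, St18 and Myrf, and 7 lower, among them Hes5. In the other Sox list 5 of 7 were lower and 0 higher. The astrocyte and radial glia list had 2 higher and 5 lower of 13, and the cell cycle list 7 lower of 10.

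In astrocyte-like over progenitor-like cells, Sox9 and Sox2 were higher and Sox10, Olig1, Olig2, Sox4, Sox6 and Sox11 were lower. Thus 2 of 9 factors were higher and 6 lower, beside 6.13% and 7.96% of all genes. Sox9 was at 884, 1108 and 1483 CPM in early, medium and late astrocyte-like cells. In progenitor-like cells it had 8, 1 and 0 UMIs, or 19.7, 2.94 and 0 CPM, and the late 0 allows up to 11.0 CPM. The log2 difference was 7.06 ± 0.51 (edgeR adjusted p = 1.84e-10), a fitted value that depends on the prior count where progenitor-like cells hold few UMIs. Sox2 was at 530, 488 and 872 CPM and differed by 1.18 ± 0.26 (edgeR adjusted p = 0.00239). Both were higher in astrocyte-like cells of every tumor. The Sox2 call was lost without the medium tumor (edgeR adjusted p = 0.0863) and without the late tumor (edgeR adjusted p = 0.0666). It was also lost without run 2 (edgeR adjusted p = 0.0639).

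Sox10 was at 11.0, 23.2 and 58.2 CPM in astrocyte-like cells, from 2, 3 and 2 UMIs, and differed by -6.24 ± 0.43 (edgeR adjusted p = 2.66e-11). The 2 group E genes differed in opposite directions, and Sox10 made up 1.23%, 2.05% and 3.77% of the Sox9 and Sox10 UMIs in astrocyte-like cells and at least 98.3% in the other 4 classes. Olig1 was at 133, 155 and 262 CPM and differed by -4.16, and Olig2 was at 60.8, 93.0 and 174 CPM and differed by -3.50. Sox4 was at 55.2, 31.0 and 0 CPM, where 0 of 34384 UMIs allow up to 87.2 CPM, and differed by -3.00. Sox6 was at 77.3, 108 and 204 CPM and differed by -1.87.

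Sox11 was at 221, 31.0 and 29.1 CPM in astrocyte-like cells, so its early value lay near the progenitor-like range. That early value had 30 of its 40 UMIs in 1 library of 28 cells, at 359 CPM, while a library of 23 cells was at 25.0 CPM. The Sox11 log2 difference of -1.41 ± 0.42 (edgeR adjusted p = 0.0217) held in 15 of 23 settings and was -0.58 (adjusted p = 0.514) with sums of at least 50 cells, which leaves the early astrocyte-like sum alone, assumed to vary like the other classes. It was -2.26 without run 2, which holds that library, and -3.01 without the early tumor. The call was lost without the medium tumor (edgeR adjusted p = 0.224), the late tumor (0.195), run 1 (0.172) and run 3 (0.501). Nkx2-2 was at 5.52, 132 and 29.1 CPM, from 1, 17 and 1 UMIs, with a log2 difference of -1.27 ± 0.52 (edgeR adjusted p = 0.108). Without the medium tumor it was -3.96 (edgeR adjusted p = 0.000590). With 23 late cells, this class was the smallest. Over all genes the median log2 difference was -0.25, and 0 with DESeq2 size factors. Among the lists, 6 of 13 astrocyte and radial glia regulators were higher and 0 lower, led by Hopx, and 5 of 17 lineage regulators were higher and 5 lower. Other Sox genes had 1 higher and 2 lower of 7, SOX10 targets 1 lower of 6, and cell cycle genes 0 of 10. Mural and fibroblast markers summed to 370, 457 and 29.1 CPM (7, 7 and 1 of 10 detected), against 34.5, 26.5 and 110 CPM in progenitor-like cells. Oligodendrocyte markers summed to 453, 1147 and 87.2 CPM against 369, 368 and 802 CPM. Neuron markers summed to 82.8, 170 and 87.2 CPM against 601, 362 and 431 CPM. The part of these in the comparison was not tested.

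Ordered by mean level over tumors within the 5 classes, Olig1 and Olig2 had the order progenitor-like, Pdgfra-type, oligodendrocyte-like, astrocyte-like and Lgals1-type, and the ranges of the last 2 overlapped while the other neighbours were apart. Olig1 means were 3101 ± 400.2 (SD, n = 3), 1628 ± 106 (n = 2), 1010 ± 124 (n = 3), 183 ± 69.0 (n = 3) and 102 ± 76.7 CPM (n = 2). Sox10 was highest in progenitor-like cells, at 1787 ± 58.6 CPM (n = 3), while oligodendrocyte-like and Pdgfra-type cells overlapped. Sox2 was highest in astrocyte-like cells and overlapped between progenitor-like and Pdgfra-type cells. Sox11 overlapped between Pdgfra-type and progenitor-like cells, as did Sox6, and Sox4 overlapped among Pdgfra-type, Lgals1-type and progenitor-like neighbours. Among the 5, Nkx2-2 was highest in Pdgfra-type cells, apart from progenitor-like cells by range.

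The genes most like each factor were sought over 29 sums of at least 20 cells, among 16182 genes, as Pearson's r of log2(CPM + 10). These sums share tumors and libraries, so r is a description. Olig1 and Olig2 were most like each other (r = 0.986), apart from the noncoding Gm15966 (r = 0.995 with Olig1), and Nkx2-2 was next for both (r = 0.931 and 0.945). Sox10 was most like Gjc3 (r = 0.946), followed by Plxnb3 and Gal3st1. Sox6 was most like Ptprz1 (r = 0.957), a receptor phosphatase of precursors and glioma cells, and Sox2 was most like Ntrk2 (r = 0.922). Sox9 was most like Nat8f5 (r = 0.886) and Clu, Sox11 most like Mapk8ip2 (r = 0.926), and Sox4 most like the overlapping Gm26735 (r = 0.985) and then Enc1 (r = 0.845). Among the factors themselves, Sox2 and Sox6 gave r = 0.855, and Sox9 and Sox10 gave r = -0.49.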

How the data were processed

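Per the study's methods, RapMap, run through bcbio-nextgen, placed reads on GRCm38 transcripts plus the transgenes, and droplets without a cell were discarded. The counts deposited by the authors are whole UMIs for each gene in each cell, without normalization, and the deposited library annotation (unit other) gives run, sort and stage. Ambient RNA and doublets were removed in the study, but whether before this table was written is not stated. The 3 deposited samples are labeled as runs 1, 2 and 3 and each mix stages and sorts. What a run was is not stated in these labels, and the sample titles name tumor pools 1 and 2 and tumor 3. Of 24 libraries 23 were used, and 17 cell columns of the smallest were not used. The labels give each library a stage but no tumor or animal. Libraries of a stage and sort were taken as technical repeats of 1 tumor sample, which was not established. On this basis replicates 1, 2 and 3 are the early, medium and late tumors. The tumor cell kinds have replicates 2 and 3 alone, and no test was made between stages.

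Cells needed at least 500 UMIs, at least 500 genes and at most 20% mitochondrial UMIs. Of the 20794 columns used, 17877 cells passed, Scrublet called 113 of 17786 tested as doublets (0.635%), which were removed, and 17764 remained. A call rate this low may leave doublets, so alternatives kept the calls or removed the 5% highest scores. Classes were gates on marker genes, and Leiden clusters (scanpy 1.11.5) were an alternative. Counts of each class with at least 20 cells were summed per tumor and fitted together with edgeR 4.0.16 (R 4.3.3; quasi-likelihood test, TMM factors, filterByExpr, tumor as block, 6 residual degrees of freedom, threshold 0.05 on adjusted p). DESeq2 1.42.0 was an alternative, as were other gates, filters, scalings and samples left out. The SE of a log2 difference is that difference divided by the root of its F statistic. Classes of a tumor come from the same libraries, so the block was kept. Over 9662 genes the deviations from class means of progenitor-like, oligodendrocyte-like and astrocyte-like sums of the same tumor correlated at 0.00483 to 0.218. Poisson intervals (levels) and Clopper-Pearson intervals (shares) are at 95% and cover counting error only. A count of 0 was given a limit of 3 counts. Since 3' tags carry no length scale, shares of 1 gene in the summed UMIs of 2 genes are compared only between classes, and levels of different genes are not ranked.

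The fitting script was tested on simulated data with known changes. The 9 genes, lists and tests were chosen with earlier results of these data known. Genes named are the 9, up to 5 passing list genes with the largest change between the tumor cell kinds, and the 3 genes most like each of the 9; list genes named in the other comparisons were picked after their values were seen. Locus coordinates are from GENCODE M21, and promoter sequence is from RefSeq. Some list genes and an allele of the mice are not reported here.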

Additional observations from a re-analysis of the deposited data

Results flagged for a closer look

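Some factors differed in opposite directions in the tumors of a comparison. The values are log2 ratios of CPM within a tumor, and the difference between tumors was not tested. In Pdgfra-type over Lgals1-type cells, Sox4 stood at 0.45 in the medium and -0.11 in the late tumor. In Pdgfra-type over progenitor-like cells, Sox11 stood at -0.42 in the medium and 0.34 in the late tumor, and Sox6 at 0.16 and -0.35. In oligodendrocyte-like over progenitor-like cells, Sox9 stood at -2.65 in the early and 1.13 in the medium tumor, the latter against 1 UMI in progenitor-like cells, and the late tumor gives no ratio because Sox9 had 0 UMIs there.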

How the results depend on the processing

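No factor that passed the threshold changed direction under the alternatives, while some that did not pass changed sign, such as Sox9 in oligodendrocyte-like over progenitor-like cells, from -1.54 to 1.82 over settings. Between tumor cell kinds 190 of 207 results stayed on their side of the threshold, 5 were lost and 12 gained. In Pdgfra-type over progenitor-like cells 187 of 206 stayed, 5 were gained and 14 were lost, each of these losses for Sox10. In oligodendrocyte-like over progenitor-like cells 198 of 206 stayed, and in astrocyte-like over progenitor-like cells 192 of 207. Of 1818 level values, 1652 moved by less than 1 SD over tumors. These include settings that only change the minimum of cells or leave out a sum, where no kept level could move. The setting of at least 10 cells per sum added no sum to the fit, so it repeats the reported result in each count of settings. Counts of genes called stayed within 1.5 times the count as reported in 147 of 184 cases. Without the tumor as a replicate block the numbers of higher and lower genes were 689 and 539 between tumor cell kinds, 419 and 363 for Pdgfra-type over progenitor-like, 1867 and 2386 for oligodendrocyte-like over progenitor-like, and 709 and 999 for astrocyte-like over progenitor-like cells, against 826 and 726, 619 and 426, 2083 and 2501, and 751 and 976 with it. Dropping the block also ended the calls on Sox11 between tumor cell kinds and over progenitor-like cells in the astrocyte comparison, and on Sox10 in Pdgfra-type over progenitor-like cells.

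Counts beyond 1.5 times were these. Between tumor cell kinds the lower genes numbered 480 without run 3 and 1286 with only the 2 classes fitted. For Pdgfra-type over progenitor-like the higher genes numbered 392 without run 3, 39 with Leiden clusters, 1181 with at least 5 markers, 1073 with at least 50 cells per sum and 1061 with every gene kept. The lower genes there numbered 151, 283 and 191 without runs 1, 2 and 3, 65 with Leiden clusters, 280 with transgene cells carrying markers of other classes left out, 221 without late progenitor-like cells and 242 with every gene kept. For oligodendrocyte-like over progenitor-like, 1054 were higher and 4183 lower without TMM factors. For astrocyte-like over progenitor-like the higher genes numbered 446 without run 3 and 397 with only the 2 classes, and the lower genes 574 and 598 without runs 1 and 3, 406 with at least 50 cells per sum and 418 with only the 2 classes. Leaving out each tumor in turn gave 111 to 919 higher and 115 to 908 lower genes between tumor cell kinds, 37 to 579 and 19 to 248 for Pdgfra-type over progenitor-like, 1298 to 1803 and 1538 to 1987 for oligodendrocyte-like, and 384 to 517 and 519 to 693 for astrocyte-like over progenitor-like cells. The cause was not tested, apart from the smaller number of samples or genes that some settings leave. The tumor cell kinds rest on the medium and late tumors, each taken as a single sample. Few UMIs of Sox9, of Nkx2-2 and Sox10 in astrocyte-like cells, and of Sox6 and Sox4 in oligodendrocyte-like cells limit those values.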

Other observations

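Outside the 5 classes, several factors were present in other cells of the CD45- sort, given here as values without a test. Sox9 was at 1071 CPM in early ependymal-like cells, with a UMI in 83.9% of 87 cells, and at 208, 167 and 373 CPM in early, medium and late choroid-plexus-like cells. In both classes the oligodendrocyte factors were low, with Sox10 at 14.8 CPM in the ependymal-like and at most 6.49 CPM in the choroid-plexus-like cells. Sox2 was also present in ependymal-like cells, at 322 CPM. In neuron-like cells of the early, medium and late tumors, Sox11 was at 1384, 900.5 and 447 CPM and Sox4 at 379, 235 and 151 CPM, while Olig1 was at most 14.2 CPM there.

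Apart from Sox4, the factors were at most 7.80 CPM in CD45+ myeloid-like cells. The early, medium and late levels of Sox4 there were 149, 34.0 and 83.1 CPM, with a UMI in 20.3%, 5.78% and 14.0% of cells. In CD45+ lymphocyte-like cells it had 0, 0 and 1 UMIs. Sox10 was at 0, 71.7 and 98.7 CPM in early, medium and late mural and fibroblast-like cells, with a UMI in 10.4% and 11.1% of the 67 medium and 63 late cells, while Olig2 was at 4.18, 0 and 0 CPM in the same cells. Unlike the normal-like glial classes, these cells could hold hsEGFR below the minimum of 2 UMIs. They had 0, 0 and 2 UMIs of hsEGFR and 0, 1 and 3 of iCre. The part of tumor cells among them was not tested. Cells with as many Pdgfra as Lgals1 UMIs had Nkx2-2 at 183 CPM (medium tumor) and 399 CPM (late tumor), and Sox9 at 1.83 and 2.83 CPM.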
